A study of Mus musculus with 30 samples.

Results

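The Bcl2 family of survival and death genes was described through 10 genes, taken as the rows of the count table whose gene name was Bcl2a1a, Bcl2a1b, Bcl2a1d, Bcl2l14, Mcl1, Bcl2, Bcl2l1, Bcl2l11, Bax or Bak1, out of 46603 genes in all. All 10 were found, each once. The libraries came from tumour-associated macrophages, the macrophages that settle in a tumour, sorted from subcutaneous 3LL-R tumours (a line derived from the Lewis lung carcinoma) in wild-type C57BL/6 mice. The sort separated cells with high surface MHC class II (MHC-IIhi) from cells with low MHC class II (MHC-IIlo). Each population was sequenced fresh (30000 cells, sorted straight into lysis buffer), after 24 h of culture without lactate, or after 24 h of culture with 20 mM sodium L-lactate (250000 cells each, lysed in the well). Each of the 6 groups held 5 libraries, and all 6 shared the strain, the genotype and the tumour. The ages of the mice, and whether a library pooled several animals, are not given in the sources used here. Fresh libraries are named by the replicate number of their label and cultured libraries by the number in their column header.

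Proteins of this family decide whether the outer membrane of the mitochondrion stays intact. Mcl1, Bcl2, Bcl-xL (encoded by Bcl2l1) and A1 (encoded by the Bcl2a1 genes) hold the pore-forming proteins Bax and Bak in check. BH3-only proteins such as Bim (encoded by Bcl2l11) bind the survival proteins and release or activate Bax and Bak, after which cytochrome c leaves the mitochondrion and caspases are switched on. Macrophages and other myeloid cells are known to lean on Mcl1 and A1, both of which are short-lived proteins. The role of Bcl2l14 (Bcl-G) in cell death is less settled.

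The 10 genes were chosen by their expression levels and differences across these 6 groups in an earlier analysis of the same data, and no record says which comparison weighed most. Their levels and differences are therefore given as a description, with no p-value. A gene "passed" a comparison where edgeR's quasi-likelihood test, fitted on all genes, gave a Benjamini-Hochberg adjusted p under 0.05, and the share of all tested genes that passed is printed beside each first count. Levels are in CPM, counts brought to a common library size and scaled (TMM) over all 30 libraries. Differences are log2 fold changes ± standard error (SE). Whether the libraries of 2 groups overlapped is given for members only. The share of all genes without overlap was not counted, so a lack of overlap does not set a member apart from other genes.

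The mouse genome carries several near-identical copies of the A1 gene, all on chromosome 9 in the GRCm38 coordinates of the deposited table: Bcl2a1d (chr9:88723285-88731914, minus strand), Bcl2a1a (chr9:88956900-88962419, plus strand) and Bcl2a1b (chr9:89199209-89207827, plus strand). Each has 2 exons and 1 transcript in that table. Aligned end to end, the GENCODE M21 transcripts of Bcl2a1a and Bcl2a1b (819 and 817 bases) had 98.16% identical bases. The figure was 98.78% for Bcl2a1a and Bcl2a1d (863 bases) and 99.14% for Bcl2a1b and Bcl2a1d. A read from these transcripts can be placed on 1 copy only where it spans a difference. Of all 50-base stretches, those found in the transcripts of no other gene made up 31% in Bcl2a1a, 20.8% in Bcl2a1b and 20.5% in Bcl2a1d, and for 75-base stretches the shares were 44.8%, 31.6% and 32.4%. Read length and the handling of reads that match several places are not given in the sources used here, so the split between the copies is uncertain and their sum is given beside it. Bcl2a1b also overlaps Gm29094, a protein-coding gene on the same strand, over 8449 bases. Gm29094 had 0 counts in every group. How reads in that overlap were assigned is not given, and its part in the Bcl2a1b level, the shares and the sum was not tested.

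The promoters of the 3 copies are shown because the copies moved by different amounts. The RefSeq windows (GRCm38.p6, 250 bases before to 50 after the annotated start, printed 5′ to 3′ on the gene's strand) are chr9:88956670-88956969 for Bcl2a1a, chr9:89199023-89199322 for Bcl2a1b and chr9:88731801-88732100 for Bcl2a1d. Capitals mark matches, on either strand, to the loose AP-1-like pattern TGANTCA (N is any base) and to the PU.1 core GAGGAAGT. The AP-1-like match read TGAATCA in all 3 windows, and its centre base was left free in the search. PU.1 is the lineage factor of macrophages, and AP-1 is a family of factors induced by growth and stress signals.
Bcl2a1a: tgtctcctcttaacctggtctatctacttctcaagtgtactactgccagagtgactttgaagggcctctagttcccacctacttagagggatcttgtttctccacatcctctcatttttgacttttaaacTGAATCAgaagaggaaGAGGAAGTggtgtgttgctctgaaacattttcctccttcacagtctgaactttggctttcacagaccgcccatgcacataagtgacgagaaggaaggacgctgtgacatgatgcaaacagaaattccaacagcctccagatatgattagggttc
Bcl2a1b: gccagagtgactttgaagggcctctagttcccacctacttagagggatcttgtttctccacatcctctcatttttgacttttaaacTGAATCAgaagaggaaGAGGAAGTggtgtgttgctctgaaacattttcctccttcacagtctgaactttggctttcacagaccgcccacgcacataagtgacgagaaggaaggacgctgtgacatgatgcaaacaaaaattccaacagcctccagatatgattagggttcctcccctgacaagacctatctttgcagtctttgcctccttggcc
Bcl2a1d: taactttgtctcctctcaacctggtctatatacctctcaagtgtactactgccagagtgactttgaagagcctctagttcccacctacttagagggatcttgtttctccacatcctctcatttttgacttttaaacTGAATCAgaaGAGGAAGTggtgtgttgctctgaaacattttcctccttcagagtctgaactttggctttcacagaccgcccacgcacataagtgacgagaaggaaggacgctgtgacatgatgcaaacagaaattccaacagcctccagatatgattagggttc
All 3 windows held 1 match to each motif, in the same order. The gap between the matches was 9 bases in Bcl2a1a and Bcl2a1b and 3 bases in Bcl2a1d. Over all 32851 RefSeq windows of 300 bases, 3.20% held the PU.1 core, 7.81% the AP-1-like pattern and 0.283% both. A match describes the letters and is not evidence of binding. The Bcl2a1b window lies further downstream relative to the same sequence, because its annotated start does.

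Bcl2l14 (chromosome 6, 134396318 to 134438736, plus strand, 9 exons) has 2 annotated starts. The window of its second start (chr6:134414178-134414477) is shown because it alone of the 2 held a motif match, to the PU.1 core right at the start.
Bcl2l14: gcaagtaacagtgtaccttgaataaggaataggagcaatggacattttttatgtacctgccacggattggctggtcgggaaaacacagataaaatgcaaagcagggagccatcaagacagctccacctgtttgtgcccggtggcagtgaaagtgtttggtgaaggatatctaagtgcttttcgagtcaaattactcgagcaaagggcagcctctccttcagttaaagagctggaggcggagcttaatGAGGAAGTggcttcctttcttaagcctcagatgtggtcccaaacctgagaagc
In the first Bcl2l14 window neither of those motifs matched, nor did the kappaB-like motif GGGNNTTCC, which 5.82% of all windows held. Of the 14 windows of the 10 genes, 5 held the PU.1 core, with the last in Bak1, 3 held the AP-1-like pattern and 1, in Bcl2l1, held the kappaB-like motif.

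Total counts ran from 16913250 to 31481548 per library. The sort was visible in the MHC class II gene H2-Ab1, at 4897 ± 472 CPM (SD, n = 5) in fresh MHC-IIhi and 89.1 ± 29.7 in fresh MHC-IIlo, and at 1151 ± 322 against 29.97 ± 23.9 after culture without lactate. The 6 macrophage markers summed to between 2312 and 6920.7 CPM in every library. In fresh cells they too followed the sort, at 2988 to 4501 CPM in MHC-IIhi and 4833 to 6548 CPM in MHC-IIlo, with 5 of 6 higher in MHC-IIlo (median 0.89). In culture the populations overlapped. T and NK cell markers summed to at most 6.99 CPM. Dendritic cell markers followed the sort: their sum was 18.4 to 35.7 CPM in fresh MHC-IIhi against 2.33 to 4.34 in fresh MHC-IIlo. In culture it was 93.4 to 276 CPM in MHC-IIhi without lactate and 93.6 to 271 with lactate, against 0.502 to 4.33 and 0.845 to 1.12 in MHC-IIlo. In cultured MHC-IIhi the sum was mostly Ccr7 (146 ± 63.7 CPM without lactate) and Flt3 (29.1 ± 13.5), while Xcr1 and Cd209a were at or near 0. The epithelial or tumour list followed the sort in fresh cells through Cdh1 (438 ± 41.8 CPM in MHC-IIhi, 113 ± 27.6 in MHC-IIlo), with Krt18 at or near 0 in every library. The whole list summed to 507 to 580 CPM in fresh MHC-IIhi and 138 to 281 CPM in fresh MHC-IIlo, so Cdh1 was not all of it. Of its 2 genes tested in fresh cells, only Cdh1 passed. Endothelial markers summed to 91.8 to 129 CPM in fresh and 87.8 to 648 CPM in cultured libraries, where Kdr made up most of the sum. Fibroblast markers summed to 16.4 to 88.8 CPM and B cell markers to 3.02 to 54.3 CPM. Differences between MHC-IIhi and MHC-IIlo below stood beside these marker differences, and the part of the markers in them was not tested. In fresh cells the macrophage, dendritic cell, T and NK cell and epithelial or tumour sums were apart between the populations. In culture, of the summed lists, only the MHC class II genes and the dendritic cell markers were apart. In bulk RNA, fewer cells of a type and less RNA per cell cannot be told apart. The library lactate MHC-IIlo 5 stood apart, with macrophage markers at 2312 CPM against 5034 to 6546 in the other 4 libraries of its group. Member values of the lactate comparisons that it moves are given with and without it. Values of the gene lists are given only with it.

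Per kilobase of transcript, Mcl1 was the most abundant member in every group, at 376 ± 96.6 CPM per kb in fresh MHC-IIhi. Bax followed at 178 ± 12.3, then Bak1 at 72.2 ± 3.94, Bcl2a1b at 68.9 ± 10.4 and Bcl2a1d at 57.0 ± 6.69 CPM per kb, where Bak1 and Bcl2a1b lay within each other's spread. Bcl2a1a stood at 40.0 ± 4.22, Bcl2l1 at 24.2 ± 4.11, Bcl2l11 at 12.5 ± 1.40 and Bcl2 at 2.20 ± 0.352, and Bcl2l14 was barely detected at 0.0437 ± 0.0496 CPM per kb. This order takes each A1 copy singly. Summed, the 3 copies (817 to 863 bases) stood at 138 ± 16.7 CPM in fresh MHC-IIhi, near Bax (869 bases) at 155 ± 10.7 CPM. In MHC-IIlo cells cultured without lactate the order below Mcl1 (292 ± 24.1), Bax (108 ± 14.1) and Bak1 (94.3 ± 11.2) had changed. There Bcl2l1 came next at 40.8 ± 3.27 CPM per kb, above Bcl2a1b (26.5 ± 1.75) and Bcl2a1d (17.1 ± 1.35). Bcl2a1a (7.07 ± 0.567) lay below Bcl2l11 (10.7 ± 1.26). The summed copies stood at 42.2 ± 2.77 CPM there, over 817 to 863 bases, so taken as 1 gene they did not lie below Bcl2l1 per kb. In every group, then, transcripts of the survival gene Mcl1 exceeded those of both pore formers per unit length, while Bcl2 itself was scarce.

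**Figure D1:**
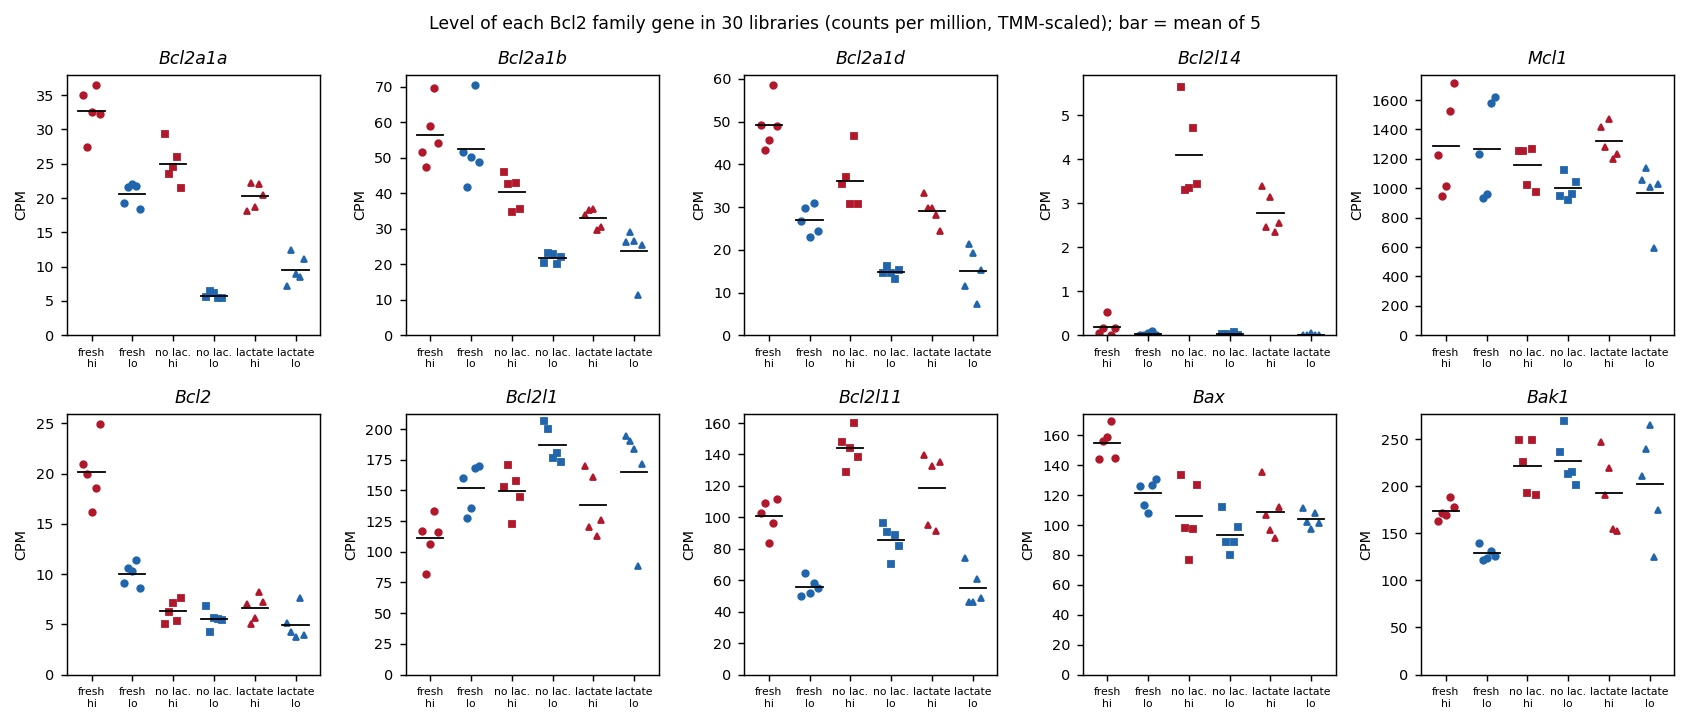
Each panel plots 1 gene: the y axis is its level in CPM from 0, the x axis the 6 groups, each point 1 library and each bar the mean of 5. Red marks MHC-IIhi and blue MHC-IIlo; circles are fresh, squares cultured without lactate, triangles cultured with lactate. Bcl2l14 rises from the floor only in the cultured MHC-IIhi groups, Bcl2a1a is lower in MHC-IIlo than in MHC-IIhi within each condition, and Mcl1 groups overlap except with lactate.

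In freshly sorted cells, most of the genes stood lower in MHC-IIlo than in MHC-IIhi macrophages, on the survival side and on the death side alike. Of the 9 members with enough counts to test, 7 passed, 1 higher and 6 lower in MHC-IIlo, where 29.2% of all genes tested passed in either direction. The median log2 fold change was -0.43 over these 9 and -0.00 over all genes. Among the survival genes, Bcl2 was at 21.005, 19.98, 16.2, 18.6 and 24.9 CPM in fresh MHC-IIhi libraries 1 to 5 and at 9.07, 10.6, 10.3, 11.4 and 8.64 CPM in fresh MHC-IIlo libraries 1 to 5. Every MHC-IIlo library lay below every MHC-IIhi library, and the log2 fold change was -1.004 ± 0.13.

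The A1 copies did not move alike in fresh cells. Bcl2a1a was at 35.0, 27.4, 32.6, 36.4 and 32.2 CPM in MHC-IIhi and at 19.3, 21.7, 22.01, 21.7 and 18.4 CPM in MHC-IIlo, a log2 fold change of -0.66 ± 0.09 that passed. Bcl2a1d passed at -0.86 ± 0.10, with 43.3 to 58.5 CPM in MHC-IIhi and 23.1 to 31.1 in MHC-IIlo. In neither gene did the 2 groups overlap. Bcl2a1b ranged from 47.3 to 69.6 CPM and from 41.6 to 70.4 CPM, overlapped almost fully and did not pass (-0.10 ± 0.13). Counted as 1 gene, the 3 copies gave -0.46 ± 0.10 and passed.

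Bcl2l1, which encodes Bcl-xL, was the 1 member higher in fresh MHC-IIlo (152 ± 19.5 CPM, n = 5) than in fresh MHC-IIhi (111 ± 18.8 CPM, n = 5), at 0.46 ± 0.12. The groups overlapped, since library 4 of MHC-IIhi (133 CPM) lay above library 2 of MHC-IIlo (128 CPM). Mcl1 did not differ beyond its spread. It ran from 947 to 1718 CPM in MHC-IIhi and from 932 to 1620 CPM in MHC-IIlo, and the log2 fold change of -0.02 ± 0.19 did not pass. Libraries 2 and 3 were the lowest and libraries 4 and 5 the highest for Mcl1 in both populations.

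The death-promoting members were all lower in fresh MHC-IIlo. Bcl2l11, which encodes Bim, was at 102, 109, 83.7, 96.7 and 112 CPM in MHC-IIhi and at 50.02, 64.3, 51.9, 58.0 and 55.1 CPM in MHC-IIlo. The 2 groups lay well apart, with a log2 fold change of -0.85 ± 0.09. The pore formers differed less: Bax was at 155 ± 10.7 against 121 ± 9.94 CPM (n = 5 each; -0.35 ± 0.07) and Bak1 at 174 ± 9.49 against 129 ± 7.23 CPM (n = 5 each; -0.43 ± 0.06). Both passed without overlap. Bcl2l14 was too low to test among the fresh libraries, with 1, 3, 11, 0 and 3 counts in MHC-IIhi and 0, 0, 1, 2 and 0 in MHC-IIlo. Neutrophil markers, which moved the other way, summed to 57.6 to 75.6 CPM in fresh MHC-IIhi and 94.4 to 160 CPM in fresh MHC-IIlo. Their part in these differences was not tested.

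After 24 h of culture without lactate, the members that passed between the populations were the A1 copies, Bcl2l14 and Bcl2l11. Bax and Bak1, which passed in fresh cells, did not pass here. Fresh and cultured cells were tested in separate fits, so a lost call is not by itself a change. Tests of the change itself are given further below. Of the 10 members tested, 5 passed and all 5 were lower in MHC-IIlo, against 20.8% of all genes tested. One of the 5, Bcl2l14, entered the test only through its counts in cultured MHC-IIhi. Over the other 9 members, 4 passed and the median was -0.20, against -0.01 over all genes. Bcl2a1a was at 29.4, 23.5, 24.5, 26.04 and 21.4 CPM in MHC-IIhi libraries 3 to 7 and at 5.53, 6.45, 6.09, 5.43 and 5.42 CPM in MHC-IIlo libraries 1, 3, 4, 5 and 6. The MHC-IIlo values were tight and far below the lowest MHC-IIhi library, at -2.10 ± 0.14.

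Bcl2a1d stood at 36.2 ± 6.54 CPM in MHC-IIhi and 14.7 ± 1.17 CPM in MHC-IIlo (n = 5 each), at -1.29 ± 0.20. Bcl2a1b stood at 40.3 ± 4.90 CPM in MHC-IIhi and 21.7 ± 1.43 CPM in MHC-IIlo (n = 5 each), at -0.89 ± 0.17. No copy overlapped between the 2 groups, and the joint level of the 3 was 87.8 to 116 CPM in MHC-IIhi against 38.6 to 45.8 CPM in MHC-IIlo.

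Bcl2l14 was nearly confined to cultured MHC-IIhi cells among these libraries. Without lactate it had 158, 69, 86, 101 and 100 counts in MHC-IIhi libraries 3 to 7 and 1, 1, 0, 2 and 0 counts in MHC-IIlo libraries 1, 3, 4, 5 and 6. Scaled for depth, the pooled counts (514 against 4) gave a 135-fold difference, with an exact 95% interval of 52.5 to 499 that covers counting error only. With lactate there were 92, 53, 59, 43 and 48 counts in MHC-IIhi and 0, 0, 1, 0 and 0 in MHC-IIlo libraries 1, 3, 4, 5 and 6. That is 295 counts against 1, a ratio of 344 (61.2 to 13615). In fresh cells the ratio was 6.12 (1.79 to 32.4), from 18 counts against 3, and 11 of the 18 came from library 3 alone. Even at its highest, in MHC-IIhi without lactate, Bcl2l14 reached 4.09 ± 1.05 CPM (SD, n = 5). An antisense gene that overlaps it, RP24-441P8.3, had 20 counts in that group, which is 3.89% of those of Bcl2l14.

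Bcl2l11 was again lower in MHC-IIlo. Without lactate it was at 148, 129, 144, 160 and 138 CPM in MHC-IIhi libraries 3 to 7 and at 96.3, 90.6, 70.0, 89.0 and 81.8 CPM in MHC-IIlo, with no overlap and a log2 fold change of -0.74 ± 0.14. The other 5 members did not pass: Mcl1 at -0.20 ± 0.14, Bcl2 at -0.18 ± 0.20, Bcl2l1 at 0.33 ± 0.17, Bax at -0.18 ± 0.13 and Bak1 at 0.04 ± 0.17. Bcl2l1 nevertheless showed no overlap (123 to 171 CPM in MHC-IIhi, 173 to 206 CPM in MHC-IIlo), and it passed at 0.32 ± 0.11 once lactate MHC-IIlo 5 was left out of the shared fit. Mcl1 passed in the deposited FPKM table, at -0.24 ± 0.07 on the log2(FPKM + 1) scale.

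With lactate, 6 of the 10 members passed, all lower in MHC-IIlo, against 22.4% of all genes tested. One of the 6 was again Bcl2l14, tested only through cultured MHC-IIhi. Over the other 9, 5 passed and the median was -0.46, against 0.02 over all genes. Bcl2a1a was at 18.1, 22.2, 18.7, 22.1 and 20.4 CPM in MHC-IIhi and at 7.11, 12.4, 8.90, 8.48 and 11.1 CPM in MHC-IIlo, for libraries 1, 3, 4, 5 and 6 of each (-1.08 ± 0.13). Bcl2l11 was at 140, 95.4, 133, 91.4 and 135 CPM against 74.3, 46.5, 46.0, 61.1 and 48.8 CPM (-1.11 ± 0.14). Neither gene overlapped. Bcl2a1d passed at -0.97 ± 0.20, and at -0.78 ± 0.15 without lactate MHC-IIlo 5.

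Bcl2a1b and Mcl1 passed with less room. Bcl2a1b gave -0.48 ± 0.17 with all libraries and -0.29 without lactate MHC-IIlo 5, where it stood at 11.4 CPM against 25.5 to 29.1 CPM in the rest of its group. It failed to pass without lactate MHC-IIhi 1, 3, 4, 5 or 6 or lactate MHC-IIlo 4 or 6, with no filter on low counts, and in the FPKM table. Mcl1 was at 1321 ± 118 CPM in MHC-IIhi and 965 ± 213 CPM in MHC-IIlo (n = 5 each; -0.46 ± 0.14). Without lactate MHC-IIlo 5 it was -0.31 ± 0.11 and passed. It failed to pass without lactate MHC-IIhi 1 or 4, with no filter, and with all 30 libraries in 1 fit. Bcl2 (-0.43 ± 0.20) and Bcl2l1 (0.26 ± 0.17) did not pass, but without lactate MHC-IIlo 5 both did, at -0.64 ± 0.18 and 0.43 ± 0.12. Bax (-0.06 ± 0.13) and Bak1 (0.07 ± 0.17, or 0.21 ± 0.15 without that library) did not pass.

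**Figure D2:**
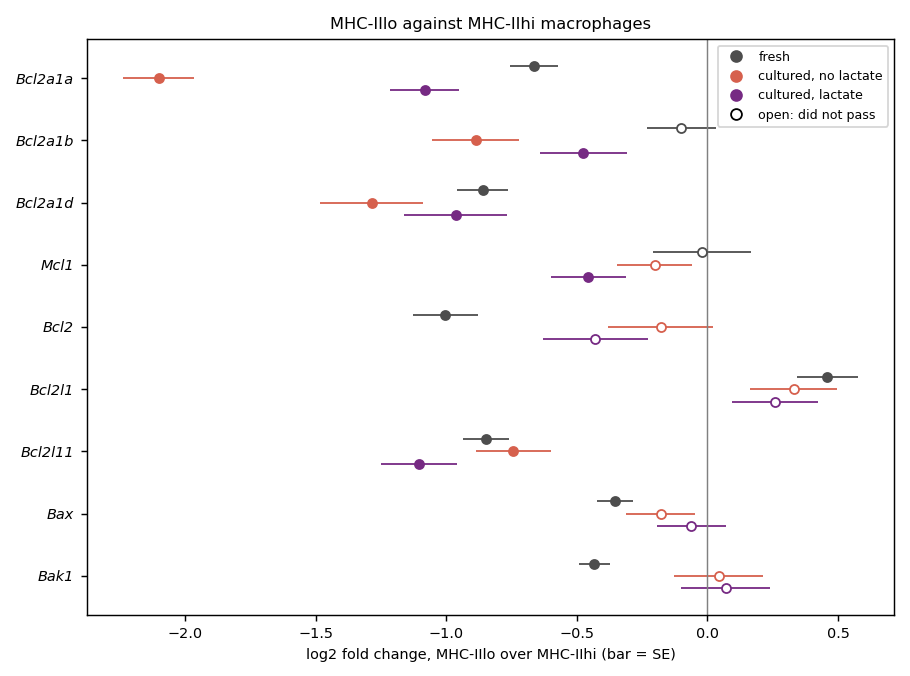
The x axis is the log2 fold change of MHC-IIlo over MHC-IIhi with its SE, for the 9 members other than Bcl2l14, in fresh cells (grey), culture without lactate (light red) and culture with lactate (purple). Filled points passed the test over all genes; Bcl2a1a reaches -2.10 in culture without lactate, Bcl2l11 is negative and filled in all 3 conditions, and Bax and Bak1 are filled only in fresh cells.

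The split of the joint A1 counts among the 3 copies was compared as shares, without a test. Bcl2a1a made up 23.7 ± 1.31% (SD, n = 5) of the counts in fresh MHC-IIhi, 24.7 ± 2.14% in MHC-IIhi cultured without lactate and 24.7 ± 2.87% with lactate. In MHC-IIlo its share was 20.8 ± 2.39% in fresh cells, 13.7 ± 0.582% in culture without lactate and 20.9 ± 6.26% with lactate. The last value rests partly on lactate MHC-IIlo 5 (31.3% of 649 counts) and was 18.3 ± 2.68% (n = 4) without it. The Bcl2a1a shares of the 2 populations overlapped in fresh cells and with lactate, and were apart in culture without lactate. Bcl2a1b took 37.0 to 42.9% in every MHC-IIhi library and 41.9 to 58.5% in the MHC-IIlo libraries. Bcl2a1d stood at 35.6 ± 1.33% in fresh MHC-IIhi and 27.1 ± 3.04% in fresh MHC-IIlo, but at 35.5 ± 3.13% and 34.9 ± 1.28% in culture without lactate and 35.3 ± 2.40% and 30.2 ± 4.22% with lactate. The shares inherit the uncertainty of placing reads on near-identical copies. A further copy, Bcl2a1c, stayed at or below 3.83 CPM in every library.

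**Figure D3:**
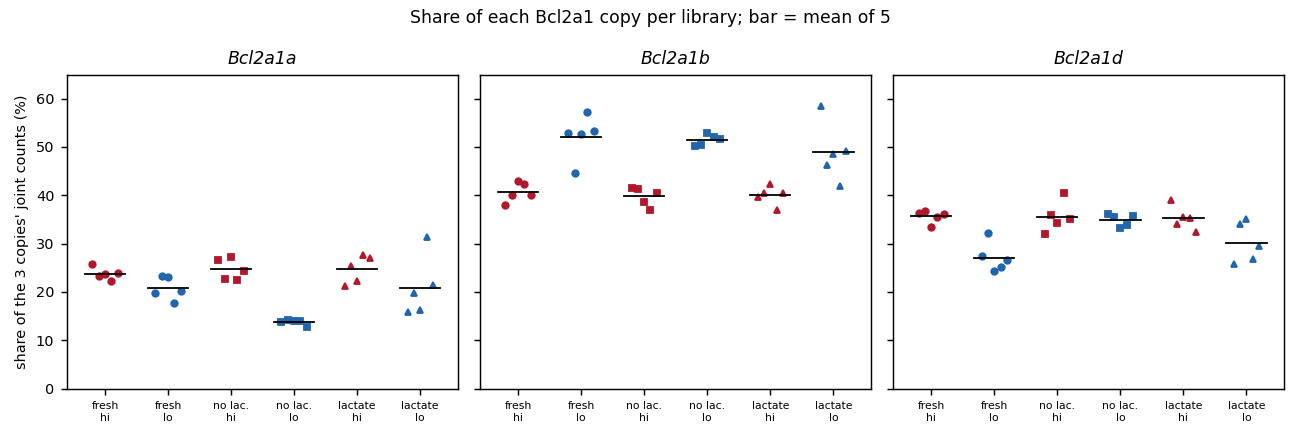
The y axis is the share, in percent, of each A1 copy in the joint counts of Bcl2a1a, Bcl2a1b and Bcl2a1d; each point is 1 library and each bar the mean of 5. The Bcl2a1a share is lowest and tightest in MHC-IIlo cells cultured without lactate (12.7 to 14.1%), and the highest Bcl2a1a point of the lactate MHC-IIlo group is library 5.

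Culture itself moved nearly every member, in a setting where most genes moved. In MHC-IIhi, 9 of the 10 members passed between fresh cells and culture without lactate, 4 higher and 5 lower in culture, against 62.0% of all genes tested. In MHC-IIlo, 8 of 10 passed, 3 higher and 5 lower, against 57.5%. Bcl2l14, one of the 4 higher in MHC-IIhi, entered that test only through its cultured counts there. Over the other 9 members, 8 passed in each population, 3 higher and 5 lower, with medians of -0.38 and -0.36 against 0.01 and -0.01 over all genes. Fresh and cultured cells also differed in cell number and lysis, so culture and handling cannot be told apart. Marker lists moved as well. Of 5 tested neutrophil markers, 3 were lower in culture in both populations (list medians -4.98 and -5.02), and 1 was higher in MHC-IIhi. S100a9 went from 12.6 ± 2.77 to 0.0415 ± 0.0745 CPM in MHC-IIhi and from 27.03 ± 11.04 to 0.0140 ± 0.0313 CPM in MHC-IIlo (n = 5 each). The neutrophil list as a sum overlapped in MHC-IIhi, at 57.6 to 75.6 CPM fresh and 40.7 to 98.3 CPM cultured. In MHC-IIlo that sum was 94.4 to 160 CPM fresh and 61.1 to 99.4 CPM cultured. The B cell gene Pax5 rose by 2.57 in MHC-IIhi and 2.31 in MHC-IIlo, and the endothelial marker Kdr went from 3.45 ± 0.934 to 384 ± 134 CPM in MHC-IIhi. The epithelial or tumour sum went from 507 to 580 CPM fresh to 38.6 to 84.3 CPM cultured in MHC-IIhi. In MHC-IIlo it went from 138 to 281 CPM to 43.5 to 60.0 CPM. Of its 3 tested genes, 2 were lower in each population, Cdh1 among them, and 1 was higher in MHC-IIhi. The part of these in the changes below was not tested.

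Of the survival genes, Bcl2 fell in both populations. It went from 20.1 ± 3.22 to 6.28 ± 1.12 CPM in MHC-IIhi (n = 5 each; -1.67 ± 0.15) and from 10.001 ± 1.13 to 5.54 ± 0.903 CPM in MHC-IIlo (n = 5 each; -0.85 ± 0.15), and the populations, apart when fresh, overlapped after culture. The A1 copies fell too, in both populations: the log2 fold change of Bcl2a1a was -0.38 ± 0.10 in MHC-IIhi and -1.83 ± 0.10 in MHC-IIlo, and that of Bcl2a1b -0.48 ± 0.12 and -1.27 ± 0.13. Bcl2a1d gave -0.44 ± 0.11 and -0.87 ± 0.12, a difference between populations that did not pass its own test. In MHC-IIlo no library of any copy overlapped between fresh and cultured cells.

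Bcl2l1 rose, by 0.44 ± 0.12 in MHC-IIhi and 0.30 ± 0.12 in MHC-IIlo. The rise in MHC-IIlo no longer passed without fresh MHC-IIlo 2 or 3, without no-lactate MHC-IIlo 1 or 3, or with all 30 libraries in 1 fit. Mcl1 passed in neither population, at -0.15 ± 0.17 and -0.33 ± 0.17. The deposited FPKM table gave larger differences that passed limma's test, -0.49 ± 0.08 and -0.81 ± 0.08, and without fresh MHC-IIlo 2 or 3 the counts gave -0.43 and -0.42 in MHC-IIlo, which passed.

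Bcl2l11 and Bak1 rose in both populations while Bax fell. Bcl2l11 gained 0.52 ± 0.09 in MHC-IIhi and 0.62 ± 0.09 in MHC-IIlo. Bak1 went from 163, 172, 169, 188 and 177 CPM in fresh MHC-IIhi libraries 1 to 5 to 248.9, 226, 193, 249.1 and 191 CPM in culture (0.36 ± 0.09). In MHC-IIlo it went from 140, 122, 124, 131 and 126 CPM to 236, 269, 213, 215 and 201 CPM (0.83 ± 0.09). Neither population overlapped between fresh and cultured cells. Ggnbp1, which lies over Bak1 on the opposite strand, had 5 to 29 counts per library, at most 0.504% of the Bak1 counts of a group. Bax fell by 0.53 ± 0.12 in MHC-IIhi and by 0.36 ± 0.12 in MHC-IIlo, the second of which was -0.22 ± 0.11 in the FPKM table and did not pass there. Bcl2l14 rose in MHC-IIhi, 22.2-fold from pooled counts (95% interval 13.9 to 37.8), and had 3 counts fresh and 4 cultured in MHC-IIlo.

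For 4 members the change in culture itself differed between the populations, where 14.3% of all genes passed that test. The change in MHC-IIlo minus that in MHC-IIhi was -1.44 ± 0.14 for Bcl2a1a, -0.79 ± 0.17 for Bcl2a1b, 0.82 ± 0.21 for Bcl2 and 0.47 ± 0.13 for Bak1. The Bak1 difference did not pass with all 30 libraries in 1 fit. Bcl2a1d (-0.43 ± 0.16) did not pass, and did without fresh MHC-IIhi 4 (-0.50 ± 0.16). The summed copies gave -0.80 ± 0.14 and passed. For Mcl1 (-0.18 ± 0.24), Bcl2l1 (-0.13 ± 0.16), Bcl2l11 (0.10 ± 0.13) and Bax (0.17 ± 0.17) the difference did not pass. Bcl2l14 did not pass either, but passed by DESeq2 and without fresh MHC-IIhi 3, the library with 11 of the 18 fresh counts.

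Lactate moved few members. In MHC-IIhi none of the 10 passed edgeR's test, where 0.250% of all genes did. DESeq2 also called 0 members, and 133 genes in all. At an unadjusted p under 0.05 there were 1342 of 13593 genes, with Bcl2a1a (-0.29 ± 0.13) the only member. As the members were chosen from these data, that count is a description. The joint level of the A1 copies was 87.8 to 116 CPM without and 75.3 to 87.2 CPM with lactate, just short of overlapping. Bcl2l14 was at 3.30 to 5.65 CPM without and 2.34 to 3.39 CPM with lactate, which overlapped. Mcl1 was at 0.20 ± 0.14, Bcl2 at 0.09 ± 0.20, Bcl2l1 at -0.11 ± 0.17, Bcl2l11 at -0.27 ± 0.14, Bax at 0.04 ± 0.13 and Bak1 at -0.19 ± 0.17.

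In MHC-IIlo, 2 of the 10 passed with lactate, 1 higher and 1 lower, against 1.49% of all genes tested. Bcl2a1a rose from 5.42 to 6.45 CPM without lactate to 7.11 to 12.4 CPM with it, without overlap (0.73 ± 0.13). The other copies gave 0.13 ± 0.17 (Bcl2a1b) and 0.02 ± 0.20 (Bcl2a1d), and the 3 copies summed gave 0.19 ± 0.15; none of these passed. These values rest on lactate MHC-IIlo 5. Without it Bcl2a1b gave 0.32 ± 0.10, with 25.5 to 29.1 CPM with lactate above 20.1 to 23.05 CPM without it, Bcl2a1d gave 0.21 ± 0.15 and the summed copies 0.35 ± 0.10, and again none passed. Bcl2a1a gave 0.78 ± 0.14 and Bcl2l11 -0.66 ± 0.15 without that library, and both passed. Bcl2l11 fell from 85.5 ± 10.1 to 55.3 ± 12.2 CPM (n = 5 each; -0.63 ± 0.14). The Bcl2l11 groups overlapped, since lactate MHC-IIlo 1 (74.3 CPM) lay above no-lactate MHC-IIlo 4 (70.0 CPM). The fall no longer passed when no-lactate MHC-IIlo 1, 3, 5 or 6 or lactate MHC-IIlo 3, 4 or 6 was left out, with values of -0.57 to -0.64. The other members did not pass with lactate in MHC-IIlo, with or without library 5: Mcl1 gave -0.05 ± 0.14 and 0.09 ± 0.11, Bcl2 -0.17 ± 0.20 and -0.37 ± 0.18, Bcl2l1 -0.18 ± 0.17 and -0.01 ± 0.12, Bax 0.15 ± 0.13 and 0.15 ± 0.14, and Bak1 -0.16 ± 0.17 and -0.02 ± 0.15. Bcl2l14 had 5 counts in those 10 libraries.

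Whether lactate acted differently in the 2 populations was tested as an interaction, and 0 of the 10 members passed edgeR's test, where 0% of all 13593 genes did. At an unadjusted p under 0.05 there were 1018 genes, Bcl2a1a the only member among them, and DESeq2 called 3 genes, again with Bcl2a1a the only member. These counts too are descriptions, since Bcl2a1a was chosen from these data. The Bcl2a1a difference, MHC-IIlo minus MHC-IIhi, was 1.02 ± 0.19. It passed by DESeq2, with the header number as a block, with all 30 libraries in 1 fit and without lactate MHC-IIlo 1, but the 3 copies summed gave 0.48 ± 0.21 and did not pass. Without lactate MHC-IIlo 5 the difference was 1.08 ± 0.19 for Bcl2a1a, 0.60 ± 0.13 for Bcl2a1b, 0.51 ± 0.21 for Bcl2a1d and 0.65 ± 0.14 for the sum, none of which passed.

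**Figure D4:**
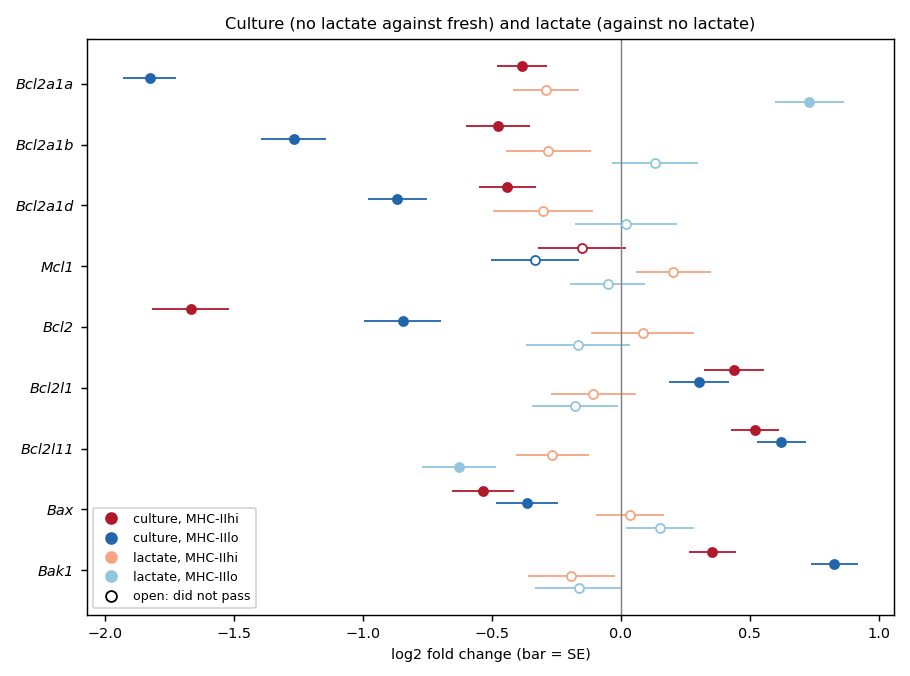
The x axis is the log2 fold change with its SE for the 9 members other than Bcl2l14: culture without lactate against fresh cells (dark red MHC-IIhi, dark blue MHC-IIlo) and lactate against no lactate (pale orange MHC-IIhi, pale blue MHC-IIlo). Filled points passed; with lactate the only filled points are Bcl2a1a (0.73) and Bcl2l11 (-0.63) in MHC-IIlo.

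Other members of the family were read from lists chosen with earlier results known. List counts are descriptions, to be read against the shares of all genes that passed: 29.2% in fresh cells, 20.8% and 22.4% between the cultured populations without and with lactate, and 62.0% and 57.5% between fresh and cultured cells. Among 7 tested BH3-only genes, relatives of Bcl2l11, 3 were higher and 3 lower in fresh MHC-IIlo than MHC-IIhi (list median 0.12, all genes -0.00). The p53-induced genes Bbc3 (Puma, -0.63 ± 0.11) and Pmaip1 (Noxa, -0.66 ± 0.12) were among the lower ones, with Bmf (-0.99 ± 0.19). In culture without lactate 1 was higher and 3 lower (median -0.35), led by Bid, the link from death receptors to mitochondria (1.06 ± 0.12), and by the mitophagy gene Bnip3 (-2.15 ± 0.29). With lactate the counts were 1 and 2 (median -0.28, all genes 0.02). Culture lowered Bbc3 in both populations (-1.18 ± 0.15 in MHC-IIhi, -0.91 ± 0.15 in MHC-IIlo) and raised Bid (0.44 ± 0.12 and 0.98 ± 0.12). In MHC-IIlo it lowered Bnip3 by 2.20 ± 0.23. Over that list culture gave 2 higher and 1 lower in MHC-IIhi (median 0.31) and 1 higher and 2 lower in MHC-IIlo (median -0.08).

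Among the other multidomain genes, 1 of 5 was lower in fresh MHC-IIlo (Bcl2l12, -0.35 ± 0.11; list median -0.04). In culture 1 of 6 was lower, the A1 copy Bcl2a1c, at -1.16 ± 0.39 without and -1.38 ± 0.40 with lactate (medians -0.15 and -0.30). Culture lowered Bcl2l12 in both populations (-1.18 ± 0.13 and -0.88 ± 0.13). In that list 1 was higher and 2 lower in MHC-IIhi (median 0.10) and 1 higher and 3 lower in MHC-IIlo (median -0.33).

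Downstream of the mitochondrion, 14 genes of the apoptosome, caspases and their inhibitors were tested. In fresh MHC-IIlo 1 was higher and 3 lower (median -0.16), in culture without lactate 0 and 6 (median -0.26) and with lactate 0 and 8 (median -0.51, all genes 0.02). The executioner Casp6 was lower in all 3 comparisons, at -1.10 ± 0.09, -1.05 ± 0.14 and -1.09 ± 0.14. Birc3 (cIAP2), an inhibitor that acts in TNF receptor signalling, was lower in culture, at -0.92 ± 0.09 and -1.18 ± 0.09. Culture gave 5 higher and 4 lower in MHC-IIhi (median 0.21) and 5 higher and 3 lower in MHC-IIlo (median 0.16), shares of 64.3% and 57.1% that were near those of all genes (62.0% and 57.5%). Casp6 fell in both populations (-1.49 ± 0.10 and -1.44 ± 0.10), while Birc6, an inhibitor of apoptosis, rose in both (by 1.30 ± 0.13 in MHC-IIhi).

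Of 13 death receptor and necroptosis genes tested, culture gave 10 higher and 2 lower in MHC-IIhi (92.3% passed against 62.0% of all genes, median 0.45) and 6 higher and 3 lower in MHC-IIlo (69.2% against 57.5%, median 0.20). Mlkl, the executioner of necroptosis, rose by 2.29 ± 0.09 and 1.98 ± 0.09, and Cflar (c-FLIP), which blocks caspase-8, by 2.38 ± 0.11 and 1.66 ± 0.11. Between populations, 3 were higher and 2 lower in fresh MHC-IIlo (median 0.06), and in culture 0 were higher and 5 lower both without (median -0.23) and with lactate (median -0.18). The adaptor Traf1 led both, at -1.98 ± 0.19 and -1.40 ± 0.18.

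Of 6 receptor genes for myeloid survival cytokines, 4 passed between the fresh populations, against 29.2% of all genes. Csf2rb (-1.31 ± 0.09), Csf2ra (-0.90 ± 0.07) and Csf2rb2 (-0.82 ± 0.08), subunits of receptors of the GM-CSF and IL-3 family, were lower in fresh MHC-IIlo, and Csf3r, the G-CSF receptor that also stands in the neutrophil list, was higher (0.65 ± 0.12; list median -0.51). Without lactate 0 of 6 passed by edgeR (median -0.04) and with lactate 1, Csf1r at -1.48 ± 0.27 (median -0.09). Csf1r is the receptor for CSF1, the main survival factor of macrophages. Culture gave 4 higher and 2 lower in MHC-IIhi (median 0.55) and 3 higher and 2 lower in MHC-IIlo (median 0.51). Csf2rb2 rose by 1.55 ± 0.12 and 2.28 ± 0.13.

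Of 11 p53 targets tested, 1 was higher and 6 lower in fresh MHC-IIlo (median -0.28), 1 and 3 without lactate (median -0.27) and 2 and 1 with lactate (median 0.02). The cell cycle inhibitor Cdkn1a was lower in each, at -0.79 ± 0.14, -1.99 ± 0.27 and -1.15 ± 0.26. Culture gave 4 higher and 5 lower in MHC-IIhi (median 0.13) and 4 higher and 3 lower in MHC-IIlo (median 0.22), with Mdm2, which degrades p53, up by 1.80 ± 0.14 and 1.56 ± 0.14. A list drawn up around Mcl1 protein turnover had 5 tested genes. Of these, Fbxw7, which marks Mcl1 for degradation, was higher in MHC-IIlo in fresh cells (0.42 ± 0.10) and in culture without lactate (0.67 ± 0.13). Each time it was the only 1 of 5 to pass, and with lactate Usp9x, which removes that mark, was lower (-0.31 ± 0.10). Culture raised Fbxw7 in both populations (0.75 ± 0.12 and 1.00 ± 0.12) and lowered the ubiquitin ligase adaptor Trib1 (-3.26 ± 0.27 and -2.90 ± 0.27). Whether Trib1 bears on Mcl1 protein was not tested. Of the 3 Vdac channels of the outer mitochondrial membrane, 0 passed by edgeR in fresh cells, and Vdac1 was lower in MHC-IIlo in culture (-0.37 ± 0.12 without and -0.49 ± 0.12 with lactate). Culture lowered Vdac1 and Vdac2 and raised Vdac3 in both populations, with Vdac1 at -0.65 ± 0.09 in MHC-IIhi and -0.87 ± 0.09 in MHC-IIlo.

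The genes whose levels followed each member most closely over the 30 libraries were found by Pearson correlation of log2 CPM among 8698 genes. These points share libraries, depth and group structure, so the values are descriptive. Bcl2a1a was most like Glipr2 (r = 0.963), Socs2 (0.959) and Aldoc (0.924). Bcl2a1b was most like Myl12a (0.941), and Bcl2a1d most like Pdcd1lg2 (0.943), followed by the sort marker Cd74 (0.938). Bcl2l14 was most like Sema7a (0.952), Inpp5b (0.940) and N4bp1 (0.935). Bcl2 was most like Zfp608 (0.958), Bcl2l1 like Plbd2 (0.951), Bak1 like Msrb1 (0.943), Bax like B9d2 (0.911) and Bcl2l11 like Zbtb18 (0.906). Mcl1 had the loosest match, to Rassf3 (0.884). Among the members themselves, Bcl2a1a and Bcl2a1d had r = 0.900 and Bcl2l11 and Bcl2l14 0.781, while Bcl2 and Bcl2l1 ran opposite (-0.647).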

How the data were processed

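The data are bulk RNA-seq of 30 libraries, with 5 libraries per group. The authors, by the submitters' processing notes, used Trimmomatic, STAR and featureCounts with GRCm38; versions, annotation release and strand setting are not given in the sources used here. The deposited count table holds whole-number counts per gene, and the deposited FPKM table holds the authors' FPKM values. Gene lengths are those of the deposited table. Counts were tested with edgeR 4.0.16 (R 4.3.3; TMM scaling, filterByExpr, quasi-likelihood, 2-sided, Benjamini-Hochberg over all genes) in 3 fits: fresh, cultured, and fresh with no-lactate libraries. The threshold on the adjusted p was 0.05. limma 3.58.1 was used for the FPKM table and DESeq2 1.42.0 as an alternative. Scripts were tested on simulated data.

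Samples were grouped by their labels; cultured columns could be tied to a group but not to a single sample, and their numbers are those of the headers. The labels call the samples biological replicates but do not say which animals they came from, so p-values measure the spread between these samples. Same-numbered fresh libraries deviated together (r from 0.18 to 0.72 over 5 pairs, the pairing taken from the labels), and the block on that number changed no fresh call of a member.

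The members and lists were chosen with earlier results of these data known. Named are all 10 members, in each list up to 3 passing genes with the smallest p per comparison, the genes most alike to each member, and 2 sort markers. Markers shown beside them and a few overlapping genes were named after their values were seen. Alternatives covered scaling, filter, tool, table, pseudocount, copies summed, block and each library left out. Amino acid sequences were not used here. Intervals cover counting error only.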

Additional observations from a re-analysis of the deposited data

Results flagged for a closer look

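Of 60 sets of 5 libraries (10 members in 6 groups), 4 held a library far from the rest of its group. Chance alone would mark about 1 set in 20 if values were normally spread and sets independent. Sets of different members share libraries, so the 4 marks cannot be set against that rate. Among the 4 marks, 3 were the same library, lactate MHC-IIlo 5. It had 11.4 CPM of Bcl2a1b (25.5 to 29.1 in the other 4), 594 CPM of Mcl1 (1009 to 1139) and 88.1 CPM of Bcl2l1 (171 to 194). Its summed macrophage markers were also low, and their part in these values was not tested. In the same group, lactate MHC-IIlo 4 had 0.0481 CPM of Bcl2l14, which is 1 count, where the other 4 libraries had 0. The rule marks any such set, however small the single count.

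The change from fresh cells to culture without lactate differed between the populations for 4 members, by the test of the difference itself. Of all genes tested, 14.3% passed it. As the members were chosen from these data, the count of 4 is a description. The change in MHC-IIlo minus that in MHC-IIhi was -1.44 for Bcl2a1a, -0.79 for Bcl2a1b, 0.82 for Bcl2 and 0.47 for Bak1, all log2. The Bak1 difference did not pass with all 30 libraries in 1 fit.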

How the results depend on the processing

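Over all alternatives, 746 of the values of members that passed stayed on the same side of the threshold with the same direction, 31 no longer passed and 0 changed direction. Members that did not pass are outside this count, and some of them passed under an alternative. Mcl1 between fresh and cultured MHC-IIlo, for example, gave -0.33 ± 0.17 from counts and -0.81 ± 0.08 in the FPKM table, where it passed. The number of members that passed kept within 1.5 times of the reported one except for lactate. In MHC-IIlo, 2 passed with lactate, 1 with the Bcl2a1 copies summed, with or without lactate MHC-IIlo 5 (the latter chosen after seeing the data), and 1 to 2 with each library left out in turn. For the difference in lactate effect, 0 passed, and 1 (Bcl2a1a) by DESeq2, with the replicate block on header numbers and with all 30 libraries in 1 fit; leaving out each library gave 0 to 1. Same-numbered cultured libraries deviated together in part: r ran from -0.20 to 0.67 between the lactate groups and from 0.04 to 0.56 between the MHC-IIlo groups (best partner in 4 of 5 each), from 0.17 to 0.50 between no-lactate MHC-IIhi and lactate MHC-IIlo, and down to -0.58 between the MHC-IIhi groups. Whether the numbers mark a shared source is unknown, and they were not treated as pairs; the block also let Bcl2 pass between the lactate populations (-0.45 ± 0.15). Bcl2l14, not tested between the fresh populations, passed there with all 30 libraries in 1 fit and did not with no filter on low counts. It entered the fit of 30 libraries only through its counts in cultured MHC-IIhi. That fit also takes its spread from all 6 groups, so this pass does not bear on the fresh cells alone. No block was fitted between fresh and cultured libraries, whose numbers differ in meaning. The median of all genes moved by less than 0.1 (log2) between scalings. Low counts limit Bcl2l14 outside cultured MHC-IIhi, and near-identical sequence limits the A1 copies at any depth.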
